A study of Mus musculus with 6 samples.

Results

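Imprinted genes are expressed mainly from the copy inherited from 1 parent. The members described here were 40 mouse imprinted genes, taken as the rows of the count table whose identifier equals a listed symbol. Of these, 35 had a row among the 21719 genes in the table. Mest, Meg3, Dlk1, Snrpn and Airn were not analysed here. RNA came from MPC5, a conditionally immortalised mouse podocyte line, and every culture was kept in high glucose. The 6 libraries formed a group of 3 labelled Setdb2KO (genotype KO for Setdb2) and a group of 3 labelled Setdb2WT (genotype WT). How Setdb2 was disrupted, whether the KO cells are a single clone, and whether replicates are separate cultures are not given in the labels. The spread behind each p-value is that of these libraries and may be technical.

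In most cases an imprint is a DNA methylation mark set in the egg or the sperm and kept through the divisions of the embryo. Methylation of histone H3 lysine 9 on the marked copy goes with it. Imprinted genes lie in clusters, in which a non-coding RNA or an insulator controlled by the mark often decides which parental copy of its neighbours is used. Many act on growth before birth, and several are turned down in most tissues afterwards. Setdb2 belongs to the SET-domain family and has been linked to the same lysine 9 mark. Read counts per gene do not tell the parental copies apart, so the values below are levels and not measures of imprinting.

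Depth was even, from 36461449 to 37129174 counted reads in a library. The targeted gene, Setdb2, showed no drop under the label Setdb2KO, with 17, 15 and 25 reads, against 12, 10 and 9 reads under Setdb2WT (log2 fold change 0.73, SE 0.38, adjusted p = 0.088, or 0.043 under total-count scaling). The groups are therefore called by their labels. Throughout, adjusted p comes from the quasi-likelihood test of edgeR, with Benjamini-Hochberg correction for all genes tested. Levels are in CPM, the usual read count relative to library size, after TMM scaling between libraries. Smad3, a transcription factor of transforming growth factor signalling, fell to 61.9 ± 2.9 CPM in the libraries labelled Setdb2KO, against 162 ± 3.1 CPM in those labelled Setdb2WT (SD, n = 3 each; adjusted p = 3.8e-13, edgeR). Among podocyte markers, Wt1 had 0, 0 and 1 reads in the libraries labelled Setdb2KO and 1, 2 and 0 in those labelled Setdb2WT. Synpo, which encodes the podocyte actin protein synaptopodin, averaged 25.4 ± 1.8 CPM in the libraries labelled Setdb2KO and 43.6 ± 0.60 CPM in those labelled Setdb2WT. Of 13 podocyte markers 9 had a row and 8 could be tested, and 2 of these were higher and 6 lower. Markers of parietal epithelium summed to 1068 to 1151 CPM in the libraries labelled Setdb2KO and 3047 to 3090 CPM in those labelled Setdb2WT, and those of tubule to 433 to 455 CPM and, under Setdb2WT, 1090 to 1104 CPM. Of 5 parietal markers tested 1 was higher (Pax8) and 4 lower, and of 4 tubule markers tested 1 was higher (Cubn) and 3 lower. Their part in the results was not tested.

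Among the 35 imprinted genes with a row, 21 had enough reads to be tested and 14 did not. This 40% left untested stands beside 37.8% of all genes in the table. Of the 21 tested, 18 differed between the labels at an adjusted p under 0.05, 7 higher and 11 lower in the libraries labelled Setdb2KO. That is 85.7%, against 83.8% of all 13509 genes tested (41.5% higher and 42.3% lower). The share of changed members was thus near that of all genes. At least 2-fold changes numbered 7 of 21, or 33.3%, against 32.6% of all genes tested. The libraries of the groups did not overlap in 18 of the 21 members, 85.7%, against 84.6% of all genes tested. The median log2 fold change was -0.11 over the tested members and 0.0045 over all genes tested. Under scaling by total counts alone the median over all genes was 0.16, and the members then split into 8 higher and 8 lower.

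**Figure D1:**
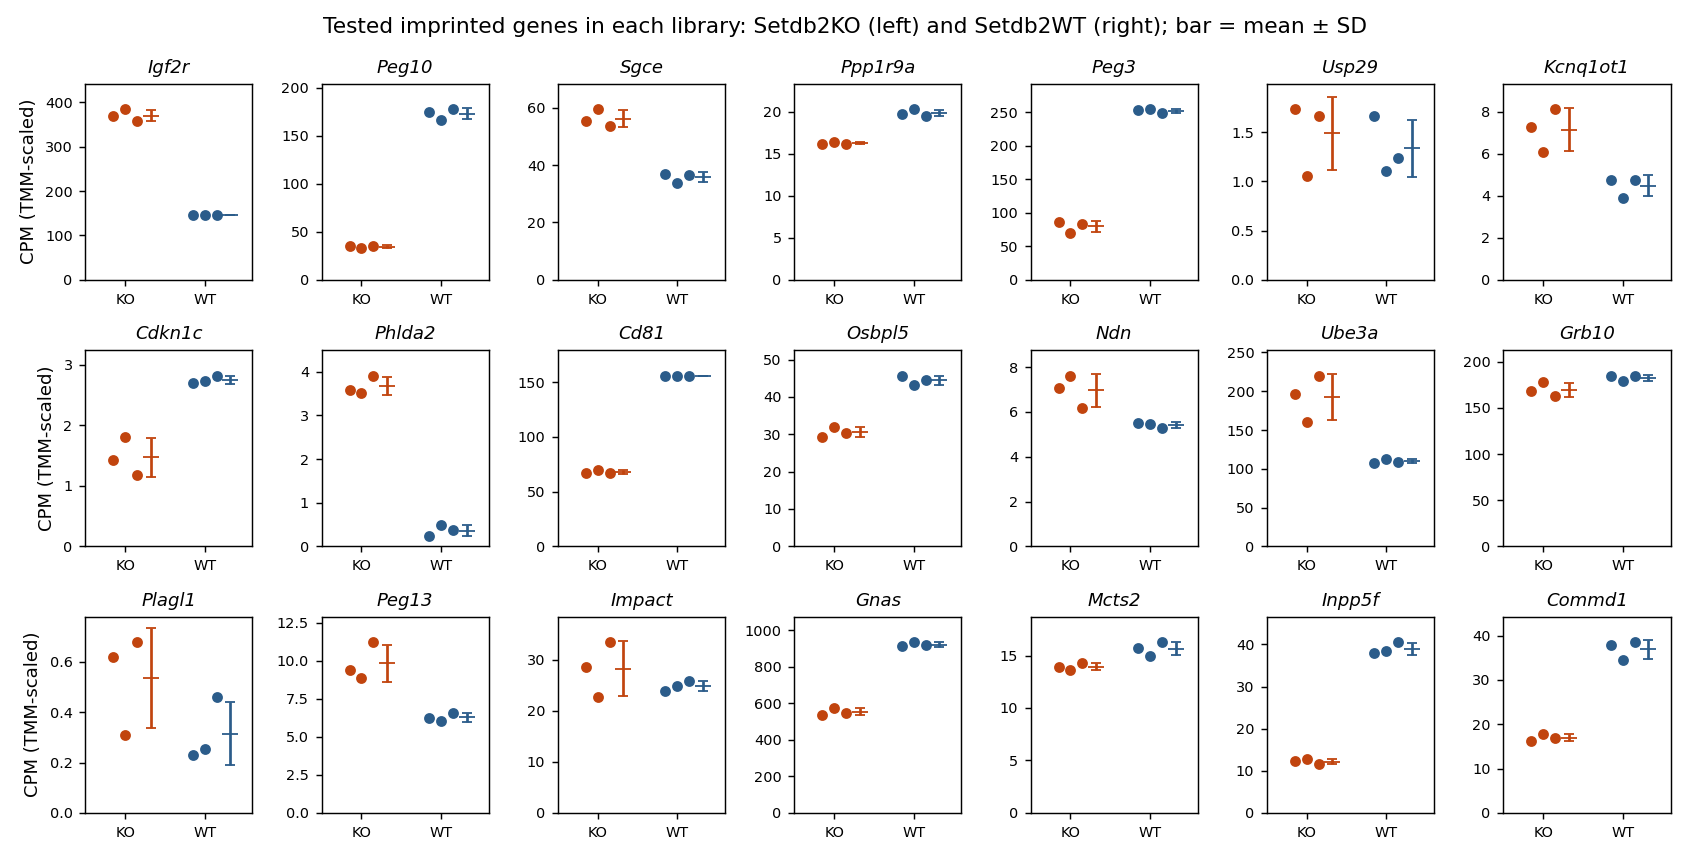
TMM-scaled CPM (y axis, linear from 0, own scale in each panel) of the 21 tested imprinted genes in each of the 3 libraries labelled Setdb2KO (left, rust) and Setdb2WT (right, blue), with mean and SD. The points of the groups do not overlap in 18 panels, and Usp29, Plagl1 and Impact are the 3 in which they do.

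**Figure D2:**
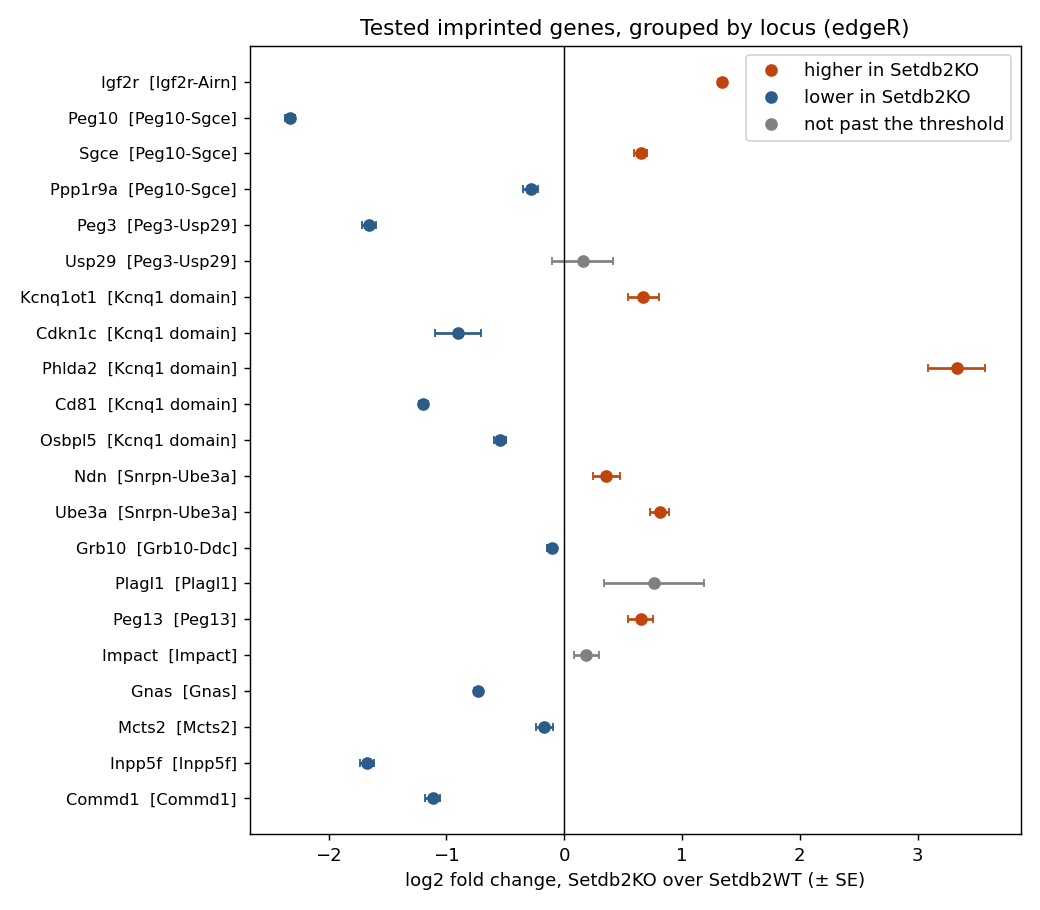
Log2 fold change of the libraries labelled Setdb2KO over those labelled Setdb2WT (x axis, with SE) for the 21 tested imprinted genes, grouped by locus. Phlda2 lies farthest right at 3.33 and Peg10 farthest left at -2.33, and members of 1 locus lie on both sides of 0 in the Peg10-Sgce, Peg3-Usp29 and Kcnq1 groups, where Usp29 at 0.16 did not pass the threshold.

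Promoters of 4 members are shown because they carry the results that follow: the window shared by Peg3 and Usp29, the window of the member with the largest rise (Phlda2), that of the insulin-like growth factor scavenger receptor Igf2r, and that of the non-coding RNA Kcnq1ot1. Each runs from 250 bases before to 50 bases after a transcript start and comes from RefSeq on GRCm38.p6, a build other than the authors' GRCm39. Capitals mark CG, the dinucleotide that imprint methylation uses; methylation itself was not measured.
Usp29, in part shared with Peg3 (chr7:6730333-6730632, plus strand): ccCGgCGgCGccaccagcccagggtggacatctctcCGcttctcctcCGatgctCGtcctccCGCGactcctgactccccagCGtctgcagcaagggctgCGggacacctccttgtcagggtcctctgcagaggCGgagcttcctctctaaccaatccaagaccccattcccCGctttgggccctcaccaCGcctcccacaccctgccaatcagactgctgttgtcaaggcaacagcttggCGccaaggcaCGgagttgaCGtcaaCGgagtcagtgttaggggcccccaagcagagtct
Phlda2 (chr7:143502475-143502774, minus strand): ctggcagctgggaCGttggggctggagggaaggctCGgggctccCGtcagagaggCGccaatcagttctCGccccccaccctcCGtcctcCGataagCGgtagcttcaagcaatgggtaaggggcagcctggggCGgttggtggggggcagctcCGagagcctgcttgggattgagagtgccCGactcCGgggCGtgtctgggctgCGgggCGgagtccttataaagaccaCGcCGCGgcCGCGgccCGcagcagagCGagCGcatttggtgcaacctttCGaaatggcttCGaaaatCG
Igf2r (chr17:12769657-12769956, minus strand): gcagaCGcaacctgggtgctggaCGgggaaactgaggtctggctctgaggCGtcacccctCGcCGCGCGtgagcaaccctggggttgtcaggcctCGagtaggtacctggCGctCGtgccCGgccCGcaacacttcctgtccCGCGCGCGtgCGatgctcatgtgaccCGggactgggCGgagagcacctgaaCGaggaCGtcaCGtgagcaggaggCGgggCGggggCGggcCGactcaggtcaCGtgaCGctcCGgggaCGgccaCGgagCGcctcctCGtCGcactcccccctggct
Kcnq1ot1 (chr7:143296498-143296797, minus strand): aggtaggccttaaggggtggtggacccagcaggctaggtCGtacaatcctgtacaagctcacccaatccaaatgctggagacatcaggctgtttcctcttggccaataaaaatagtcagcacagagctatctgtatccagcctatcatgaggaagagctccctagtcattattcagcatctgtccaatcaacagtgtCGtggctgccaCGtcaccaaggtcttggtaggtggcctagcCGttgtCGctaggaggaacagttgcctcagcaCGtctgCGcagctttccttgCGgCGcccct
The Igf2r window held 34 CG, and 7.73% of the 32851 promoter windows in the table held as many or more. Phlda2 held 26 (16.9%), the Usp29 window 17 (31.4%) and Kcnq1ot1 9 (45.8%). The letters CCAAT, the core bound by the factor NF-Y, were counted on both strands. They occurred 3 times in the Kcnq1ot1 window, 2 times in that of Usp29 and 1 time in that of Phlda2, and 37.4% of all windows held at least 1. TGCCGC, which itself holds a CG and is the core read by the imprint-keeping zinc finger protein Zfp57, was in 0 of these 4 windows on either strand, and 11.6% of all windows held it. Counted per gene, 9 of 27 members with a window held TGCCGC in at least 1 of their windows (33.3%), beside 13.1% of all 27025 genes with a window. These shares are not matched for the number of CG in a window, and binding of Zfp57 was not measured. Taking the window with the most CG for each gene, the median was 24 CG in 16 tested members and 10 CG in 11 untested members, beside a median of 7 over all windows, where each window of a gene counts. The same split of tested and untested genes is not given for the whole table, so these medians are description only.

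The Kcnq1 domain of chromosome 7 gave the largest rise and movement in both directions. Its paternally expressed non-coding RNA, Kcnq1ot1, silences neighbouring genes on the paternal copy in the mouse. Kcnq1ot1 (Entrez 63830) had 7.26, 6.07 and 8.13 CPM in the libraries labelled Setdb2KO, against 4.78, 3.91 and 4.77 CPM in those labelled Setdb2WT. All 3 libraries labelled Setdb2KO lay above all 3 labelled Setdb2WT, a 1.59-fold rise (log2 fold change 0.67, SE 0.13, adjusted p = 3.5e-04, edgeR). Kcnq1, the potassium channel gene that Kcnq1ot1 crosses on the opposite strand, had 1, 0 and 0 reads in the libraries labelled Setdb2KO and 3, 0 and 2 in those labelled Setdb2WT. The strand setting of the counting is not given in the sources used here, so reads of the pair cannot be told apart where they overlap.

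Cdkn1c (Entrez 12577), which encodes the CDK inhibitor p57 and is expressed from the maternal copy, had 1.42, 1.81 and 1.17 CPM in the libraries labelled Setdb2KO, against 2.69, 2.72 and 2.82 CPM in those labelled Setdb2WT. These groups did not overlap, and it fell 1.87-fold (log2 fold change -0.90, SE 0.20, adjusted p = 7.3e-04, edgeR). The level rested on few reads, 55, 70 and 45 against 94, 96 and 98. Phlda2, a maternally expressed pleckstrin-homology protein that restrains placental growth, went the other way. Phlda2 (Entrez 22113) had 3.59, 3.51 and 3.91 CPM in the libraries labelled Setdb2KO, and 0.229, 0.482 and 0.374 CPM in those labelled Setdb2WT. It rose 10.1-fold (log2 fold change 3.33, SE 0.24, adjusted p = 1.1e-08, edgeR) and rested on 139, 136 and 150 reads, against 8, 17 and 13 reads in the libraries labelled Setdb2WT. Markers of placenta and yolk sac, 3 of 5 with a row, summed to 0.362 to 0.756 CPM in the libraries labelled Setdb2KO and 0.738 to 1.00 CPM in those labelled Setdb2WT. Of the 2 tested, Afp was lower, at 0.164 ± 0.12 CPM, against 0.667 ± 0.10 CPM in the libraries labelled Setdb2WT. Psg17 had 0.389 ± 0.25 and, under Setdb2WT, 0.229 ± 0.18 CPM (SD over the 3 libraries of each label) and did not pass.

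Farther out in the domain, both abundant members were lower. Cd81 (Entrez 12520), a tetraspanin of the cell surface whose imprinting is described in the placenta, had 66.6, 70.2 and 67.1 CPM in the libraries labelled Setdb2KO, against 156, 155 and 156 CPM in those labelled Setdb2WT. The groups lay far apart for their spread, and Cd81 fell 2.29-fold (SE 0.035 on the log2 scale, adjusted p = 4.7e-13, edgeR). R74862, a gene that overlaps Cd81 on the opposite strand, rose to 6.88 ± 0.66 CPM in the libraries labelled Setdb2KO, against 3.58 ± 0.16 CPM in those labelled Setdb2WT (SD, n = 3 each; adjusted p = 5.3e-06, edgeR). Osbpl5 (Entrez 79196), an oxysterol-binding protein relative that moves lipids between membranes, fell 1.46-fold, with 29.3, 31.9 and 30.3 CPM, against 45.7, 43.3 and 44.4 CPM (adjusted p = 1.8e-07, edgeR). Ascl2, a transcription factor of the placenta and intestine, had 0, 1 and 1 reads in the libraries labelled Setdb2KO and 1, 1 and 0 in those labelled Setdb2WT. Slc22a18, a membrane transporter, had 0, 1 and 1 reads, against 0, 0 and 1 under Setdb2WT. Tspan32, a tetraspanin of blood cells, had 1, 5 and 1 reads, against 3, 0 and 2 under Setdb2WT. These 3 genes were too low to compare.

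Of 15 tested genes in this stretch and its flanks that are not members, 2 were higher, 10 lower and 3 not past the threshold. Over all genes tested 41.5% were higher and 42.3% lower, and no test was made of the stretch. Tssc4, between Cd81 and Kcnq1, had 56.5 ± 2.2 CPM in the libraries labelled Setdb2KO and 58.0 ± 2.1 CPM in those labelled Setdb2WT (SD, n = 3 each; log2 fold change -0.039, SE 0.046, adjusted p = 0.43, edgeR). Nap1l4, a nucleosome assembly protein gene next to Phlda2, fell 1.79-fold to 107 ± 4.4 CPM, against 191 ± 5.8 CPM in the libraries labelled Setdb2WT (adjusted p = 6.2e-11). Both of these are genes of the imprinted region in the wider list described below. Dhcr7, in the flank beyond Osbpl5 and among the 10 lower genes, is in that list too.

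**Figure D3:**
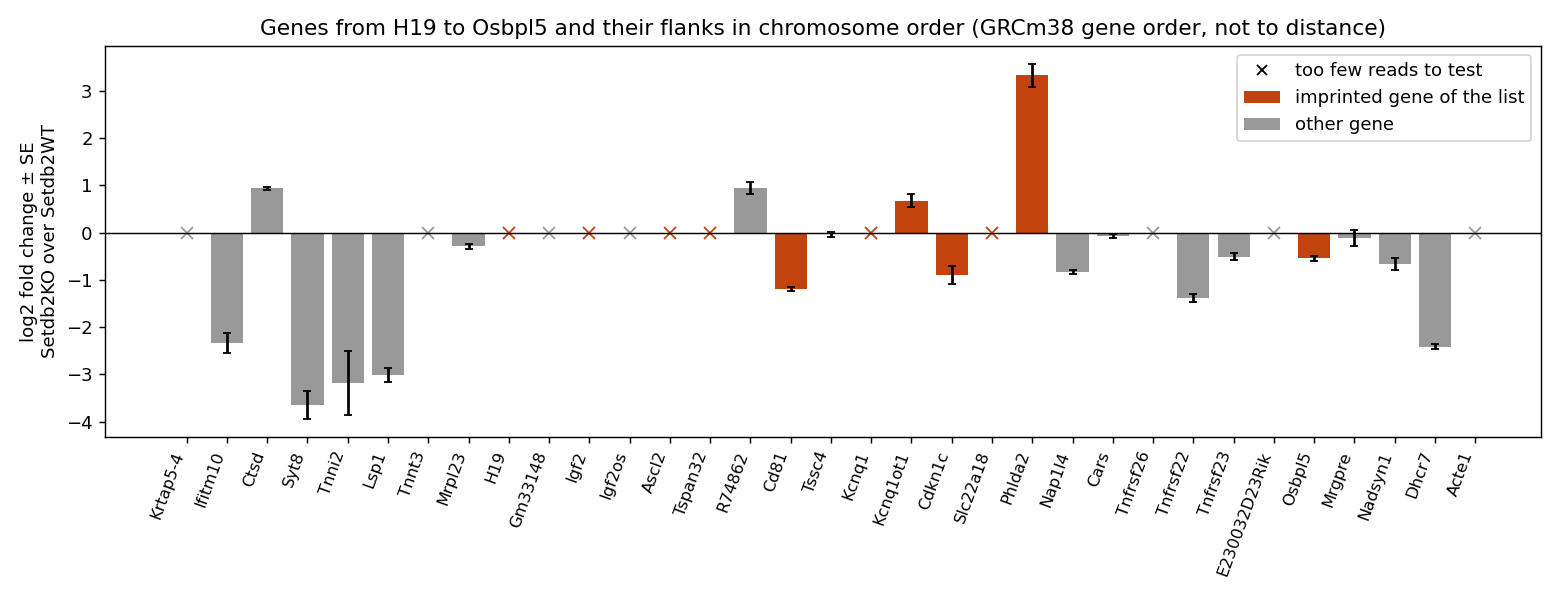
Log2 fold change (y axis, with SE) of the genes around H19, Igf2 and the Kcnq1 domain in chromosome order (x axis, evenly spaced), libraries labelled Setdb2KO over those labelled Setdb2WT. Rust bars are members and grey bars other genes; crosses at 0 mark genes with too few reads to test. Phlda2 stands at 3.33, and the nearest tested genes on its sides are Cdkn1c at -0.90 and Nap1l4 at -0.84.

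The Peg10 locus on chromosome 6 split in direction. Peg10 is a gene derived from a retrotransposon and needed for the placenta, and Sgce encodes epsilon-sarcoglycan of the dystrophin-associated complex. They start next to each other and run in opposite directions from a shared imprinted control region, and both are expressed from the paternal copy. Peg10 (Entrez 170676) had 35.3, 32.8 and 35.1 CPM in the libraries labelled Setdb2KO, against 175, 166 and 178 CPM in those labelled Setdb2WT. Every library labelled Setdb2KO was far below every library labelled Setdb2WT, and Peg10 fell 5.03-fold (log2 fold change -2.33, SE 0.042, adjusted p = 4.6e-15, edgeR). Sgce (Entrez 20392) rose 1.57-fold, with 55.5, 59.5 and 53.7 CPM, against 37.1, 33.9 and 36.7 CPM in the libraries labelled Setdb2WT (log2 fold change 0.65, SE 0.054, adjusted p = 4.3e-08). The 95% intervals of these log2 fold changes, -2.42 to -2.24 for Peg10 and 0.53 to 0.76 for Sgce, lie on opposite sides of 0.

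On the far side of Peg10, Ppp1r9a (Entrez 243725), which encodes the actin-binding protein neurabin, had 16.2, 16.5 and 16.2 CPM in the libraries labelled Setdb2KO, against 19.7, 20.3 and 19.6 CPM in those labelled Setdb2WT. It fell 1.22-fold (adjusted p = 6.8e-04, edgeR), but did not pass under total-count scaling (adjusted p = 0.063). Outside the members, Bet1, a gene of transport from the endoplasmic reticulum to the Golgi that lies beside Sgce, rose to 35.2 ± 4.6 CPM, against 23.5 ± 1.2 CPM in the libraries labelled Setdb2WT (adjusted p = 1.5e-05). Pon3, a lactonase gene beside Ppp1r9a, fell to 19.1 ± 1.3 CPM, against 43.3 ± 0.39 CPM (SD, n = 3 each; adjusted p = 1.3e-10, edgeR).

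In the Peg3 locus on chromosome 7, Peg3 fell and its divergent partner Usp29 did not pass the test. Peg3, a large zinc finger protein, and Usp29, a deubiquitinase, are both paternally expressed. Their RefSeq starts lie 164 bases apart on opposite strands, and their promoter windows share 263 bases of the sequence printed above. Peg3 (Entrez 18616) had 85.6, 70.2 and 83.7 CPM in the libraries labelled Setdb2KO, against 254, 254 and 249 CPM in those labelled Setdb2WT. The groups did not overlap, and Peg3 fell 3.16-fold (log2 fold change -1.66, SE 0.057, adjusted p = 2.9e-12, edgeR). Usp29 (Entrez 57775) had 1.73, 1.06 and 1.67 CPM, against 1.66, 1.11 and 1.24 CPM in the libraries labelled Setdb2WT, and the groups overlapped. Its log2 fold change was 0.16 (95% interval -0.41 to 0.72, adjusted p = 0.59, edgeR), and the difference between the changes of Peg3 and Usp29 was not tested. Zim1, a maternally expressed zinc finger gene, had 2 reads over the libraries of each label.

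**Figure D4:**
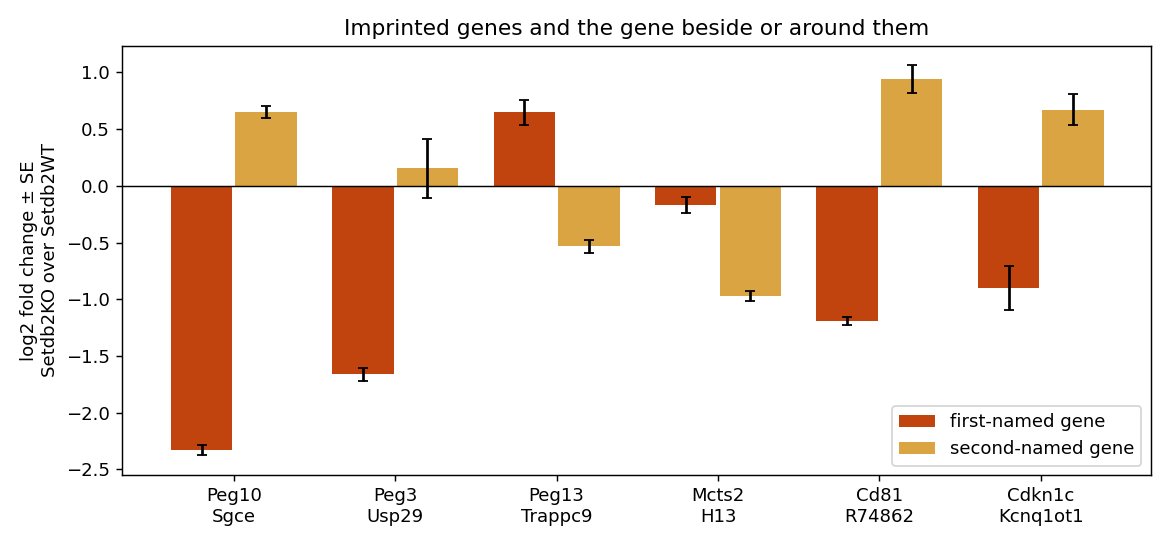
Log2 fold change (y axis, with SE) of the libraries labelled Setdb2KO over those labelled Setdb2WT for 6 pairs of genes that adjoin or overlap; the first-named gene of each pair is the left bar. Peg10 at -2.33 and Sgce at 0.65 lie on opposite sides of 0, as do Cdkn1c and Kcnq1ot1, Cd81 and R74862, and Peg13 and Trappc9, whereas Mcts2 and H13 are both below 0.

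Growth factor signalling is the function for which imprinting is best known, and here a receptor was abundant while the ligand was at or near 0 reads. Igf2r encodes the mannose 6-phosphate receptor, which carries lysosomal enzymes to the lysosome and removes insulin-like growth factor 2 from the cell surface; it is maternally expressed in most mouse tissues. Igf2r (Entrez 16004, chromosome 17) had 368, 385 and 358 CPM in the libraries labelled Setdb2KO, against 147, 146 and 146 CPM in those labelled Setdb2WT. It rose 2.53-fold (log2 fold change 1.34, SE 0.033, adjusted p = 9.4e-14, edgeR), with no overlap between the groups. The nearest tested genes in GRCm38 order were 4732491K20Rik and Pnldc1, with log2 fold changes of 0.33 (SE 0.24, adjusted p = 0.21) and -0.060 (SE 0.47, adjusted p = 0.91), neither past the threshold. Both were low, 4732491K20Rik at 1.67 ± 0.33 CPM and, under Setdb2WT, 1.32 ± 0.25 CPM. Pnldc1 had 0.484 ± 0.013 and, under Setdb2WT, 0.504 ± 0.37 CPM, so a change in either could be missed. Igf1r, the receptor through which the growth factor signals and no member of the list, rose to 197 ± 3.1 CPM, against 130 ± 1.6 CPM in the libraries labelled Setdb2WT (SD, n = 3 each; adjusted p = 2.5e-10, edgeR). Igf2 itself, the fetal growth factor, had 0, 0 and 0 reads in the libraries labelled Setdb2KO and 0, 2 and 0 in those labelled Setdb2WT. H19, the maternally expressed non-coding RNA beside it, had 0 reads in each library labelled Setdb2KO and 1 read in each labelled Setdb2WT. No fold is given for either, since both groups lie at or under 3 reads.

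Grb10 (Entrez 14783, chromosome 11), an adaptor that dampens insulin and insulin-like growth factor receptors, was among the most abundant members. It had 169, 178 and 162 CPM in the libraries labelled Setdb2KO, against 185, 179 and 184 CPM in those labelled Setdb2WT. The change was small, a log2 fold change of -0.11 (SE 0.037, adjusted p = 0.015, edgeR), and total-count scaling turned it to 0.047 (adjusted p = 0.24). Ddc, the dopa decarboxylase gene beside it, had 0 reads in the libraries labelled Setdb2KO and 2, 1 and 1 in those labelled Setdb2WT. Plagl1 (Entrez 22634, chromosome 10), a zinc finger protein that controls other imprinted genes, had 0.620, 0.310 and 0.678 CPM, against 0.229, 0.255 and 0.460 CPM in the libraries labelled Setdb2WT. The groups overlapped and Plagl1 did not pass (log2 fold change 0.76, 95% interval -0.15 to 1.68, adjusted p = 0.11), but it did without Setdb2KO replicate 2 (log2 fold change 1.04, adjusted p = 0.035, edgeR). Without Setdb2KO replicate 3 its log2 fold change was 0.56 (adjusted p = 0.30, edgeR), and in 12 alternatives Plagl1 stayed short of the threshold.

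Gnas (Entrez 14683, chromosome 2), which encodes the stimulatory G protein alpha subunit and several imprinted alternative products, had the highest level of all members. Its libraries held 538, 575 and 547 CPM under the label Setdb2KO, against 912, 934 and 918 CPM under Setdb2WT. Gnas fell 1.66-fold (log2 fold change -0.73, SE 0.031, adjusted p = 2.3e-11, edgeR), with no overlap; a count per gene does not separate its products. Per kilobase of exon, Gnas stood first in both groups, with 49.5 ± 1.7 CPM per kb in the libraries labelled Setdb2KO and 82.4 ± 1.0 CPM per kb in those labelled Setdb2WT (SD, n = 3 each). Exon lengths are the union of exons in GENCODE M21, on GRCm38, so this order is approximate. In the libraries labelled Setdb2KO the next were Igf2r at 39.8 ± 1.4, Cd81 at 23.6 ± 0.67, Grb10 at 18.7 ± 0.85 and Mcts2 at 15.3 ± 0.34 CPM per kb. In those labelled Setdb2WT Cd81 at 54.0 ± 0.12 came next, then Peg10 at 26.0 ± 0.88, Grb10 at 20.1 ± 0.35, Peg3 at 18.9 ± 0.23, Mcts2 at 17.2 ± 0.72 and Igf2r at 15.7 ± 0.065 CPM per kb. Igf2r thus stood second under the label Setdb2KO and seventh under Setdb2WT, while Peg10, at 5.16 ± 0.21 CPM per kb under Setdb2KO, stood eleventh there. Lower in the order under Setdb2KO, Peg3 (5.99 ± 0.63), Impact (5.50 ± 1.1), Sgce (5.30 ± 0.28) and Peg10 did not differ beyond their spread.

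In the Snrpn and Ube3a region of chromosome 7, which in humans is tied to Prader-Willi and Angelman syndromes, both tested members rose. Ube3a (Entrez 22215), a ubiquitin ligase expressed from the maternal copy in neurons and from both copies in most other cells, had 197, 161 and 220 CPM in the libraries labelled Setdb2KO, against 108, 113 and 109 CPM in those labelled Setdb2WT. It rose 1.75-fold (log2 fold change 0.81, SE 0.081, adjusted p = 3.5e-07, edgeR), and the lowest library labelled Setdb2KO lay above the highest labelled Setdb2WT. Snhg14, the non-coding RNA that runs across Ube3a on the opposite strand in neurons, had 1 read over the libraries labelled Setdb2KO and 0 over those labelled Setdb2WT. Neuron markers, 4 of 5 with a row, summed to 2.55 to 3.07 CPM in the libraries labelled Setdb2KO and 12.99 to 14.22 CPM in those labelled Setdb2WT, with Snap25 and Stmn2 at 1 read or 0. Most of that sum was Tubb3, at 2.41 ± 0.43 CPM in the libraries labelled Setdb2KO and 13.4 ± 0.71 CPM in those labelled Setdb2WT. Syp had 0.458 ± 0.20 and, under Setdb2WT, 0.247 ± 0.13 CPM (SD, n = 3 each) and did not pass. Ndn (Entrez 17984), the paternally expressed necdin gene, had 7.08, 7.62 and 6.18 CPM, against 5.52, 5.47 and 5.29 CPM in the libraries labelled Setdb2WT, a 1.28-fold rise (adjusted p = 0.0088, edgeR). Its neighbour Magel2, of the same protein family, had 0 reads in the libraries labelled Setdb2KO, and 3, 5 and 2 reads in those labelled Setdb2WT. For a bound, 3 reads over the group were taken as the limit that a count of 0 allows, and the 10 reads under Setdb2WT as exact. On these terms Magel2 was at least 3.67-fold higher in the libraries labelled Setdb2WT. Counting error of those 10 reads is not covered and would lower the bound, and spread between libraries is not covered either. Mkrn3, a ring finger gene next to them and a member of the wider list, rose to 4.51 ± 0.90 CPM, against 1.60 ± 0.26 CPM (SD, n = 3 each; adjusted p = 5.0e-06, edgeR). The nearest tested genes beside Ube3a, Atp10a and A230057D06Rik, were both lower, with log2 fold changes of -0.68 (adjusted p = 1.8e-08, edgeR) and -3.28 (SE 0.43, adjusted p = 5.9e-06). A230057D06Rik rested on few reads, at 0.121 ± 0.083 CPM in the libraries labelled Setdb2KO and 1.20 ± 0.083 CPM in those labelled Setdb2WT.

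Several members lie inside another gene, where their reads may be mixed with those of the host. Peg13 (Entrez 353342, chromosome 15), a paternally expressed non-coding RNA within Trappc9, had 9.38, 8.88 and 11.2 CPM in the libraries labelled Setdb2KO, against 6.21, 6.01 and 6.58 CPM in those labelled Setdb2WT. It rose 1.57-fold (adjusted p = 6.7e-05, edgeR), whereas Trappc9, a subunit of a vesicle tethering complex, fell to 28.6 ± 1.3 CPM, against 41.4 ± 1.9 CPM (SD, n = 3 each; adjusted p = 5.3e-07). Mcts2 (Entrez 66405, chromosome 2), a retrocopy of the X-linked Mcts1 gene that sits within H13, had 13.9, 13.7 and 14.3 CPM, against 15.76, 14.98 and 16.27 CPM in the libraries labelled Setdb2WT. Its change was slight (log2 fold change -0.17, SE 0.070, adjusted p = 0.039, edgeR) and did not pass in 10 of 14 alternative settings (adjusted p 0.023 to 0.86 over all of them). H13, a signal peptide peptidase, fell to 50.5 ± 2.6 CPM, against 99.1 ± 2.0 CPM. Mcts1 rose to 28.3 ± 1.5 CPM, against 21.3 ± 0.20 CPM (adjusted p = 1.7e-05), and reads that Mcts1 and Mcts2 share make the value of Mcts2 uncertain.

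Nap1l5, a retrogene within Herc3, had 1 read over the libraries labelled Setdb2KO and 0 over those labelled Setdb2WT. Its host Herc3, a ubiquitin ligase, fell 4.79-fold to 10.3 ± 0.11 CPM, against 49.2 ± 1.1 CPM (SD, n = 3 each; adjusted p = 7.7e-14, edgeR). Nnat, the neuronatin gene within Blcap, had 0 reads over the libraries labelled Setdb2KO and 1 over those labelled Setdb2WT. Its host Blcap rose to 55.9 ± 1.2 CPM, against 28.7 ± 2.3 CPM (adjusted p = 1.1e-09). The hosts were thus well covered, Herc3 by 1190 reads over the libraries labelled Setdb2KO and 5168 over those labelled Setdb2WT, while the imprinted genes inside them were at or near 0.

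Of the tested members not yet described, Inpp5f and Commd1 fell and Impact did not pass. Inpp5f (Entrez 101490, chromosome 7), a phosphoinositide phosphatase of endosomes with an imprinted brain transcript, had 12.2, 12.7 and 11.7 CPM in the libraries labelled Setdb2KO, against 37.9, 38.4 and 40.5 CPM in those labelled Setdb2WT. It fell 3.19-fold (log2 fold change -1.68, SE 0.061, adjusted p = 4.5e-12, edgeR). Commd1 (Entrez 17846, chromosome 11), a copper and protein trafficking factor, fell 2.17-fold, with 16.3, 17.7 and 17.0 CPM, against 37.8, 34.4 and 38.5 CPM in the libraries labelled Setdb2WT (adjusted p = 5.5e-10). The nearest tested genes beside Commd1 are B3gnt2, of the wider list described below, and Cct4. Both were lower, with log2 fold changes of -0.89 (adjusted p = 9.8e-10, edgeR) and -0.49 (adjusted p = 4.9e-10). Impact (Entrez 16210, chromosome 18), an inhibitor of the amino acid sensor Gcn2, had 28.6, 22.6 and 33.4 CPM, against 23.8, 24.9 and 25.8 CPM in the libraries labelled Setdb2WT. The lowest library labelled Setdb2KO lay below all 3 labelled Setdb2WT, and Impact did not pass (log2 fold change 0.19, 95% interval -0.042 to 0.41, adjusted p = 0.12, edgeR). It did without Setdb2KO replicate 2 (log2 fold change 0.32, adjusted p = 8.0e-05) and under total-count scaling (0.34, adjusted p = 0.0084).

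Setdb2KO replicate 2 lay at an end of its group in each of the 21 tested members. It was the lowest of the 3 libraries labelled Setdb2KO in 10 members (47.6%) and the highest in 11 (52.4%). Over all genes tested it was the lowest in 29.2% and the highest in 45.5%, and so at an end in 74.7%. The median coefficient of variation of the members was 5.24% in the libraries labelled Setdb2KO and 3.40% in those labelled Setdb2WT, beside 5.39% and 4.03% over all genes tested. Leaving this library out gave 19 changed members, 9 higher and 10 lower: Plagl1 and Impact passed, and Mcts2 did not (adjusted p = 0.083, edgeR). Plagl1 and Impact did not pass with Setdb2KO replicate 1 (adjusted p = 0.25 and 0.21, edgeR) or replicate 3 (0.30 and 0.62) left out.

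The 14 untested members had at most 5 reads in any library. Over the libraries labelled Setdb2KO they summed to 0 to 7 reads each, and over those labelled Setdb2WT to 0 to 10. In the libraries labelled Setdb2KO 6 of them were at 0 throughout, and in those labelled Setdb2WT 2 were. Rian and Mirg, maternally expressed non-coding RNAs of the Dlk1 and Meg3 locus on chromosome 12, were at or near 0. Rian had 0, 0 and 1 reads in the libraries labelled Setdb2KO and 0, 0 and 0 in those labelled Setdb2WT, and Mirg had 0, 0 and 0 reads, against 0, 0 and 1 under Setdb2WT. Dcn, the matrix proteoglycan decorin that marks fibroblasts, had 2 reads, against 8 in the libraries labelled Setdb2WT. The other fibroblast markers, 4 of 6 with a row, summed to 1.59 to 2.35 CPM in the libraries labelled Setdb2KO and 6.76 to 8.59 CPM in those labelled Setdb2WT, and Lum was at 0 in all but 1 library. Most of that sum was Col1a1, the 1 marker of the 4 tested, at 1.68 ± 0.26 CPM in the libraries labelled Setdb2KO and 7.24 ± 0.85 CPM in those labelled Setdb2WT, while Col1a2 had 0.250 ± 0.17 and, under Setdb2WT, 0.276 ± 0.13 CPM (SD, n = 3 each). Their part in the values of Dcn was not tested, and fewer cells of a type cannot be told apart from less RNA per cell in bulk samples. Without a filter on low counts, Magel2 was the only 1 of the 14 to pass (adjusted p = 0.012, edgeR).

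**Figure D5:**
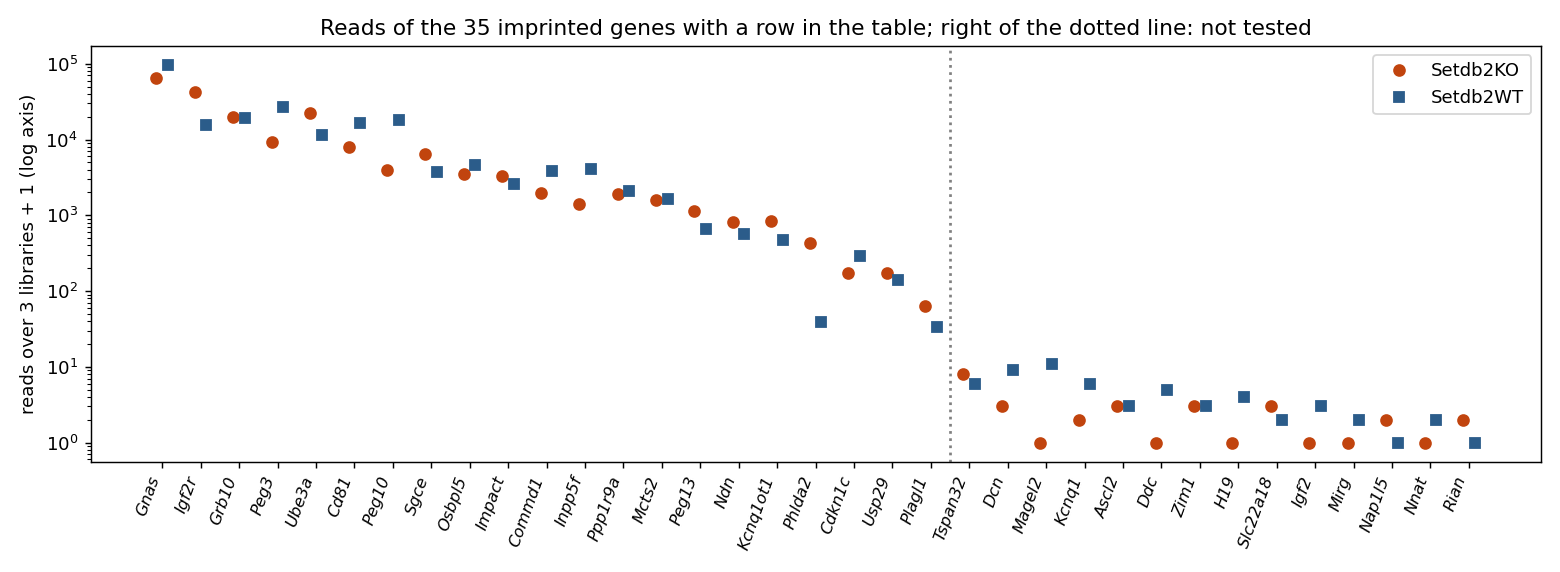
Reads summed over 3 libraries plus 1 (y axis, log scale) for the 35 imprinted genes with a row, in libraries labelled Setdb2KO (circles) and Setdb2WT (squares), ordered by the sum of both. The 21 tested genes lie left of the dotted line and the 14 untested ones, with at most 10 reads per group, right of it.

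By parent of origin, as textbook knowledge of the mouse assigns it, no group of members moved 1 way. Of 8 tested members expressed from the maternal copy 3 rose and 5 fell, with a median log2 fold change of -0.41. Of 11 expressed from the paternal copy 4 rose and 4 fell, 3 being short of the threshold, and the median was 0.19. Among 13 tested members imprinted in many tissues 6 rose and 4 fell, with a median of 0.36. Among 8 whose imprinting is limited to a tissue or product 1 rose and 7 fell, with a median of -0.64. Of those 7, Grb10 and Ppp1r9a did not pass under total-count scaling (adjusted p = 0.24 and 0.063, edgeR), where Grb10 turned to 0.047. Over all genes tested 41.5% were higher and 42.3% lower, and the median was 0.0045. The groups of members are small and overlap in locus, and no test was made between them. Where a changed member lay beside a changed gene that is no member, 12 of 21 such pairs moved the same way and 9 in opposite ways. The share for neighbouring genes over the whole table was not taken, so these counts are description only. Several of the neighbours, such as Nap1l4, Mkrn3 and Trappc9, belong to the wider list below.

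A wider list held 48 further imprinted genes and genes of imprinted regions, of which 30 had a row and 25 were tested. In the libraries labelled Setdb2KO 6 rose and 16 fell, 3 were short of the threshold, and the median log2 fold change was -0.84; the 88.0% that changed stand beside 83.8% of all genes. At least 2-fold changes numbered 12 of 25, or 48%, against 32.6% of all genes tested. The 8 with the smallest adjusted p were Dhcr7, Herc3, Cobl, Gatm, Gab1, Bcl2l1, Copg2 and Slc38a4. Dhcr7, the last enzyme of cholesterol synthesis, fell 5.31-fold to 22.6 ± 1.2 CPM, against 120 ± 3.3 CPM in the libraries labelled Setdb2WT (SD, n = 3 each; adjusted p = 8.2e-15, edgeR). Slc38a4, an amino acid transporter with placental imprinting, fell 11.7-fold to 0.682 ± 0.095 CPM, against 8.01 ± 0.35 CPM (adjusted p = 3.9e-11). Cobl, an actin nucleator, and Gatm, the first enzyme of creatine synthesis, fell 2.95-fold and 2.40-fold. Bcl2l1, an inhibitor of apoptosis, and Copg2, a coat protein of Golgi vesicles beside Mest, fell 2.19-fold and 2.44-fold. Gab1, a docking protein of growth factor receptors, was the only 1 of these 8 to rise, 2.28-fold to 89.9 ± 1.2 CPM, against 39.4 ± 0.25 CPM.

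Genes that keep, read or remove imprints also moved in both directions. Of 35 listed, 32 had a row and 31 were tested; 12 rose and 13 fell, 6 were short of the threshold, and the median log2 fold change was -0.046, and scaling by totals instead gave 17 higher and 11 lower. The 80.6% that changed stand beside 83.8% of all genes. Changes of at least 2-fold numbered 2 of 31, or 6.45%, against 32.6% of all genes tested. These were Naa10, an acetyltransferase that aids maintenance methylation, which fell 5.73-fold to 9.42 ± 0.69 CPM, against 54.0 ± 1.1 CPM (SD, n = 3 each; adjusted p = 8.2e-14, edgeR), and Uhrf1, which brings Dnmt1 to newly copied DNA, which fell 2.30-fold to 114 ± 4.2 CPM, against 263 ± 2.3 CPM. Trim28, the corepressor that Zfp57 and Zfp445 recruit to imprinted control regions, fell 1.82-fold to 381 ± 12 CPM, against 695 ± 11 CPM in the libraries labelled Setdb2WT (adjusted p = 4.1e-12).

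The imprint-binding zinc finger proteins differed in direction. Zfp445 rose 1.75-fold to 148 ± 2.2 CPM, against 84.6 ± 1.7 CPM (adjusted p = 2.2e-11, edgeR), and Zfp57 fell 1.26-fold to 21.8 ± 1.1 CPM, against 27.6 ± 1.6 CPM (adjusted p = 2.2e-04). Tet3, which oxidises methylated cytosine, and Arid4b, a chromatin protein of the Prader-Willi imprinting centre in the mouse, rose 1.71-fold and 1.87-fold. Mbd3, a subunit of the NuRD complex, and Ehmt2, an H3 lysine 9 methyltransferase, fell 1.57-fold and 1.55-fold. Dnmt1, the maintenance methyltransferase, had 421 ± 13 CPM in the libraries labelled Setdb2KO and 436 ± 2.0 CPM in those labelled Setdb2WT and did not pass (log2 fold change -0.048, SE 0.030, adjusted p = 0.16).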

How the data were processed

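Raw counts of reads per gene, as deposited by the authors with 1 column per library, were used. The submitters' processing notes name fastp, HISAT, HTSeq and the build GRCm39; per the labels' protocols total RNA was taken up in TRIzol. Which versions, annotation and strandedness were used is not given in these sources. Columns were matched to samples by genotype and number, with 0 left unmatched. All 6 libraries entered 1 fit in edgeR 4.0.16 (R 4.3.3; quasi-likelihood, genotype term, TMM scaling, filterByExpr with a minimum count of 10). P-values were adjusted by Benjamini-Hochberg for the 13509 genes that passed the filter, and 0.05 was the threshold. Fold changes are from that fit (prior count 0.125), CPM is TMM-scaled, and SD is over 3 libraries. The scripts were tested on simulated counts. Alternatives were other scalings, DESeq2 1.42.0, limma-voom (limma 3.58.1), other filters, the replicate number as a block and each library left out. Entrez IDs were looked up in a RefSeq gene table of GRCm38 (97.0% found), used for chromosomes and gene order only; promoters are RefSeq's on GRCm38.p6.

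The members and lists were chosen with earlier results of these data known. Every member is accounted for. Per-library values are given for members past the threshold with a mean of at least 1 CPM, and for those of the Igf2, Dlk1 and Cdkn1c loci; Impact, Plagl1 and Usp29 were added after their values were seen, as were the hosts, overlapping genes, Igf1r and the marker genes given by name. From the 2 further lists the 8 genes with the smallest adjusted p and a mean of at least 1 CPM are named; other genes of those lists are named for their position or role. At this depth, genes with few reads carry wide counting error.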

Additional observations from a re-analysis of the deposited data

How the results depend on the processing

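Of the 21 tested members, 15 passed in the same direction in each of the 14 alternatives run; the others were Impact, Plagl1, Usp29, Grb10, Mcts2 and Ppp1r9a. The number of changed members was 16 to 19 under every alternative, with 18 in the reported analysis. The median log2 fold change of the members, -0.11, was 0.047 under total-count scaling, where Grb10, the median member, also turned to 0.047, and -0.18 without a filter on low counts, where all 35 members with a row were tested. Total-count scaling put the median of all genes at 0.16, beside 0.0045 with TMM. Grb10 also did not pass with the DESeq2 Wald test (adjusted p = 0.059), without Setdb2KO replicate 1 (0.058) or without Setdb2KO replicate 3 (0.062). With a library left out, the changed members numbered 16 to 19 and their median was -0.14 to -0.076.

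Libraries of the same replicate number did not deviate together (correlations of 0.00086, -0.037 and -0.0057 over genes), so the numbers were not taken as pairs. With the replicate block 17 members changed, Mcts2 being lost (adjusted p = 0.053), and 11190 of all genes. Depth limits the 14 untested members, for which a difference was not detectable or rests on at most 10 reads per group.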

Other observations

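Among the further imprinted genes not yet described, and chosen after their values were seen, Peg12 and Qpct moved in opposite directions. Peg12, a paternally expressed gene of the Prader-Willi region, fell to 2.04 ± 0.091 CPM in the libraries labelled Setdb2KO, against 7.78 ± 0.59 CPM in those labelled Setdb2WT (SD, n = 3 each; log2 fold change -1.93, adjusted p = 3.4e-09, edgeR). Qpct, which encodes glutaminyl cyclase, rose to 8.55 ± 0.62 CPM, against 2.47 ± 0.54 CPM (log2 fold change 1.79, adjusted p = 3.6e-08, edgeR). Chrac1, the tested gene after Peg13 in GRCm38 order, fell to 22.6 ± 1.1 CPM, against 44.1 ± 2.2 CPM in the libraries labelled Setdb2WT (log2 fold change -0.96, adjusted p = 1.2e-09, edgeR). Ago2, an Argonaute protein gene also on chromosome 15, had 230 ± 6.2 CPM in the libraries labelled Setdb2KO and 228 ± 4.2 CPM in those labelled Setdb2WT and did not pass (log2 fold change 0.0084, SE 0.032, adjusted p = 0.81, edgeR). The non-coding genes took 1.14% to 1.21% of all counts in the libraries labelled Setdb2KO and 0.70% to 0.73% in those labelled Setdb2WT.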
